A study of Aspergillus luchuensis with 6 samples.

Results

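Broad tag clusters were stretches of the genome of Aspergillus luchuensis mut. kawachii, a white koji mould, over which transcription started at many positions of a strand. Start positions came from CAGE (cap analysis of gene expression), which reads a tag at the 5′ cap of an RNA. Tags mark where transcription began, and their number how much capped RNA from that start the sample held. Positions holding at least 0.1 CPM (counts per M tags, a scaling to the library total) in all libraries pooled were joined into a cluster when at most 20 bp apart. The width of a cluster was the distance in bp between the positions where its pooled tags reached 10% and 90%, plus 1, so that it held the central tags and ignored the tails. A cluster was called broad at a width of at least 80 bp and a pooled level of 5 to under 300 CPM, on scaffolds named DF other than the tag-rich scaffold DF126582.1. This gave 1393 broad clusters of 9658 clusters in that range of levels (14.4%) and of 21824 clusters of at least 1 CPM in all. The other 8265 clusters in the range, with a width under 80 bp, are called narrow clusters here. The clusters were thus chosen by width and level in the pooled tags, so width, level and every measure of shape in those tags are given as a description with no test. No start site was matched to a gene here, so whether a cluster is the promoter of a gene was not analysed, and clusters are named by scaffold, strand and position.

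The libraries were 3 of a laeA disruptant (strain label sirD, genotype label delta laeA) and 3 of a control strain (label ctrl345). Mycelia of both strains were shaken at 30 °C, for 36 h in M medium and then for 12 h in CAP medium, before total RNA was taken. The meaning of sirD, the parent of each strain and whether the 3 libraries of a strain came from separate cultures are not given in the labels, so p-values measure only the spread between these libraries, and a difference between strains may have another source than laeA. The tags of the laeA gene itself were not analysed here.

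LaeA, a nuclear protein that resembles methyltransferases, is known in Aspergillus for its wide control of genes of secondary metabolism. In animals, promoters are commonly sorted into sharp ones, which start transcription at a narrow point and often carry a TATA box, and broad ones, which start it at many positions and are common at widely expressed genes. In the yeast Saccharomyces cerevisiae, RNA polymerase II scans downstream from the promoter and can start at several positions of the same promoter.

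The disruptant libraries held 14.8 to 17.3 M tags and the control libraries 18 to 19.3 M. Scaffold DF126582.1 took 7.49% to 17.3% of the tags of a disruptant library and 9.42% to 17.2% of those of a control library. Earlier work on these files had parted the libraries by start position into control 1, control 2 and disruptant 1 against control 3, disruptant 2 and disruptant 3. The labels give no such sets. The broad clusters held 7301461 of the 104026348 tags, or 8.07%, 6.62% and 6.74% of the tags of disruptant libraries 1, 2 and 3, against 7.17%, 7.53% and 5.88% in control libraries 1, 2 and 3. These shares overlapped (7.14% ± 0.80 in the disruptant and 6.86% ± 0.87 in the control, SD, n = 3 each). Tags of total RNA from bulk mycelium do not tell apart fewer cells using a start site, less use of it in each cell and less stable RNA.

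The median width was 103 bp, with a range of 80 to 515 bp. Of the 1393 broad clusters, 785 (56.4%) reached 100 bp, 221 (15.9%) reached 150 bp and 74 (5.31%) reached 200 bp. The median pooled level was 29.5 CPM in broad clusters and 14.9 CPM in narrow ones. Wider members tended to hold more tags, with a Spearman coefficient of 0.31 between width and pooled level across the 1393 members, which share the same libraries and one lower limit of 0.1 CPM for a position. The part of depth in this relation was not tested. The broad clusters lay on 65 scaffolds, 664 on the plus and 729 on the minus strand. Among the 39 scaffolds with at least 50 clusters in the range of levels, the broad share was lowest on DF126484.1 (1 of 53, 1.89%) and highest on DF126476.1 (14 of 65, 21.5%). Scaffold DF126447.1 had 118 broad clusters of 700 (16.9%).

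**Figure D1:**
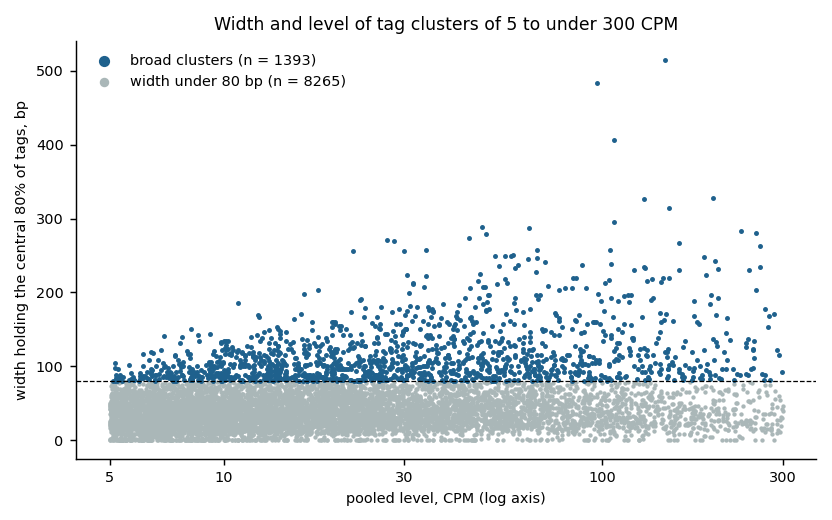
Width in bp against pooled level in CPM (log axis) for the 1393 broad clusters and the 8265 clusters of the same range of levels under 80 bp; each point is a cluster and the dashed line stands at 80 bp. Most broad clusters lie between 80 bp and 168.8 bp, their 90th percentile, and 3 exceed 400 bp, the widest at 515 bp.

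The threshold of 80 bp fell within a continuous distribution: 45 members were exactly 80 bp wide and 40 clusters outside were 79 bp wide. Just inside stood, by level, DF126456.1 minus strand from 277043 (103 CPM), DF126456.1 plus strand from 653579 (89.2 CPM) and DF126460.1 plus strand from 536291 (83.4 CPM). Just outside at 79 bp stood DF126480.1 plus strand from 168648 (246 CPM), DF126455.1 plus strand from 425861 (171 CPM) and DF126464.1 minus strand from 129428 (117 CPM). At the lower limit of level, members of 5.11, 5.15 and 5.17 CPM with widths of 80, 98 and 80 bp faced clusters of 4.999, 4.95 and 4.94 CPM with widths of 88, 110.0 and 82 bp. At the upper limit, members of 298, 292 and 289 CPM (93, 116 and 122 bp) faced clusters of 301, 302 and 307 CPM (282, 91 and 250.0 bp). Outside the range of levels, 72 clusters of at least 300 CPM and 31 of 1 to under 5 CPM were also at least 80 bp wide.

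Within a broad cluster, tags were spread over a median of 44 positions of at least 0.1 CPM (range 11 to 205), against 20 in narrow clusters. The strongest position held a median of 13.4% of the tags in broad clusters and 23.6% in narrow ones. In 343 broad clusters (24.6%) it held under 10%, and in 6 (0.431%) at least 50%, against 764 narrow clusters (9.24%) at 50% or more. Expressed as the number of equally used positions that would give the same entropy, use was spread over a median of 34.8 positions in broad and 14.4 in narrow clusters. The strongest position lay at the median of the tags or to either side of it: its distance from the pooled median start had a median of 0 bp and quartiles of -12 and 13 bp, negative being upstream.

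The tags of most broad clusters did not form a single mound. Tags were summed in a sliding window of 11 bp, and maxima of at least 20% of the highest one and at least 20 bp apart were counted as peaks. By that count 73 broad clusters (5.24%) had 1 peak, 199 (14.3%) had 2, 334 (24.0%) had 3, 436 (31.3%) had 4 and 351 (25.2%) had 5 or more. At least 2 peaks were found in 1320 broad clusters (94.8%) and in 4197 narrow ones (50.8%). The clusters were chosen by width, so this difference is a description. The highest and second-highest peaks were a median of 51 bp apart in broad clusters and 27 bp in narrow ones, and the second held a median of 63.2% of the first in broad clusters and 48.8% in narrow ones.

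**Figure D2:**
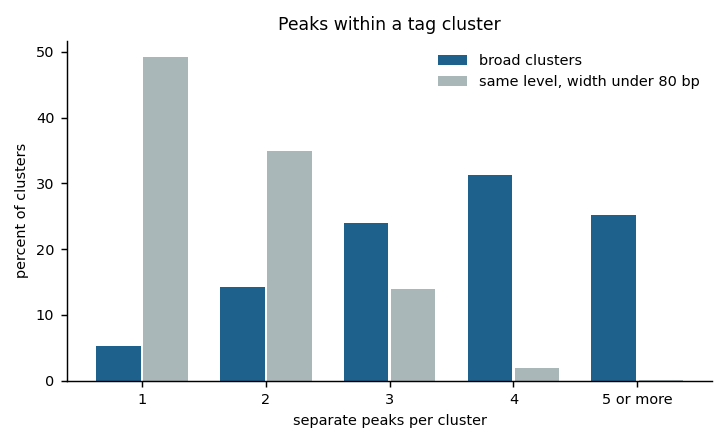
Percent of clusters by their number of separate peaks, for the 1393 broad clusters (left bar of each pair) and the 8265 clusters of the same levels under 80 bp (right bar). Broad clusters are most often found at 4 peaks (31.3%), narrow ones at 1 peak (49.2%).

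The joining distance decided how many of these stretches counted as one cluster. With positions joined only when at most 10 bp apart, 158 of the 1393 broad clusters (11.3%) held 1 cluster of at least 1 CPM, 436 (31.3%) held 2 and 799 (57.4%) held 3 or more. The largest distance between successive positions of at least 0.1 CPM inside a broad cluster had a median of 17 bp, close to the joining distance of 20 bp.

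The widest member lay on DF126467.1, minus strand, positions 17196 to 17962. It was 515 bp wide, with 205 positions and 6.25% of its tags at the strongest one. Its level was 149, 81.4 and 125 CPM in disruptant libraries 1, 2 and 3, against 158, 205 and 135 CPM in control libraries 1, 2 and 3. The strains overlapped (log2 fold change of disruptant over control -0.49, SE 0.26; edgeR quasi-likelihood test, adjusted p = 0.293). Its median start, relative to the pooled one and positive downstream, stood at -40, 102 and 80 bp in the disruptant libraries and at -22, -40 and 83 bp in the control libraries, so that disruptant 1 and controls 1 and 2 were upstream of disruptants 2 and 3 and control 3.

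The second widest, on DF126460.1, minus strand, positions 787258 to 787843, spanned 483 bp. Its strongest position was the same in every library, 59 bp downstream of the pooled median. It had 55.8, 68.3 and 68.8 CPM in disruptant libraries 1, 2 and 3, against 99.3, 150.4 and 128 CPM in control libraries 1, 2 and 3, with no overlap (log2 fold change -0.97, SE 0.21; edgeR adjusted p = 0.0258). Its share of tags upstream of the pooled median did not pass the test (log2 ratio 0.29, SE 0.15; edgeR adjusted p = 0.731).

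The third widest, on DF126463.1, minus strand, positions 260430 to 260982, spanned 406 bp and was also the most even member: its strongest position held 3.55% of its tags. The strongest position of single libraries differed, and only disruptant 3 and control 1 shared theirs, 37 bp upstream of the pooled median. Its level was 137, 94.4 and 135 CPM in disruptant libraries and 107, 91.5 and 79.5 CPM in control libraries, which overlapped. The log2 fold change was 0.40 (SE 0.21; edgeR adjusted p = 0.293). The next most even members lay on DF126455.1, minus strand, positions 1006161 to 1006420 (4.01% at the strongest position, 160.0 bp wide), and on DF126451.1, minus strand, positions 185109 to 185303 (4.06%, 155 bp). Neither was called for level, with log2 fold changes of -0.40 and -0.15 (edgeR adjusted p = 0.391 and 0.810).

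**Figure D3:**
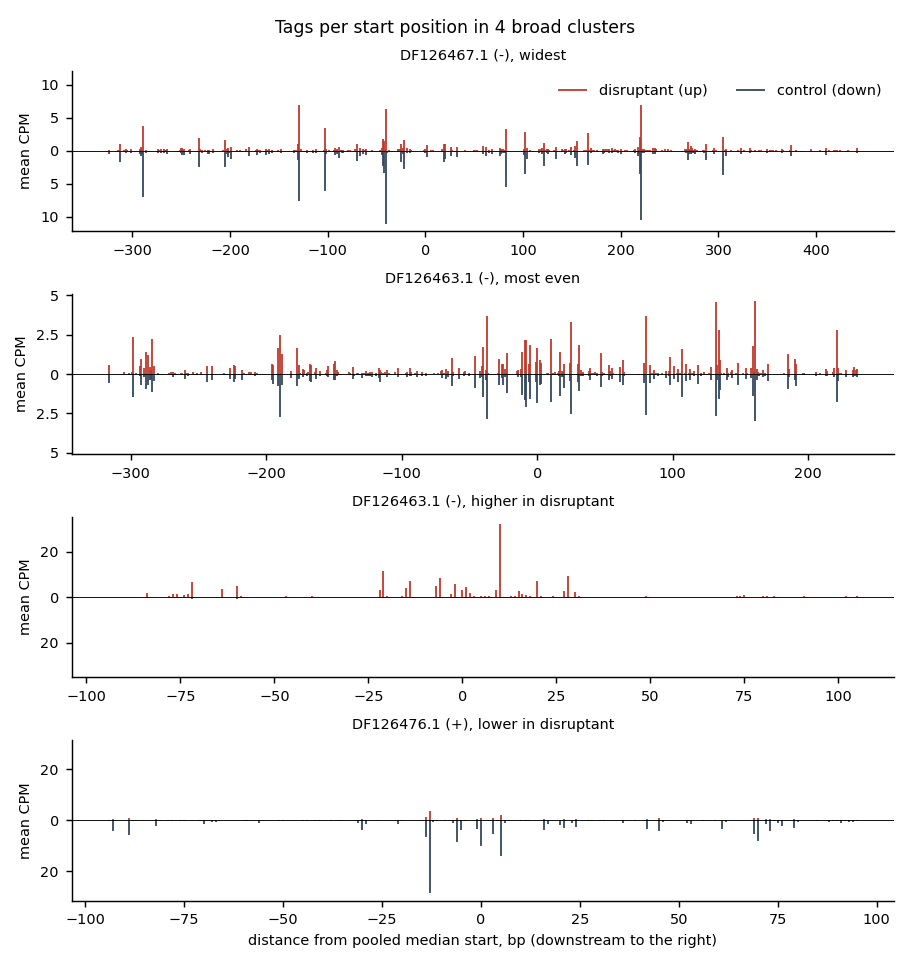
Mean CPM at each start position of 4 broad clusters, disruptant upward and control downward (n = 3 libraries each), against the distance in bp from the pooled median start with downstream to the right. The widest (515 bp) and the most even (406 bp) member show many separate spikes in both strains, the member on DF126463.1 from 683115 shows spikes almost only in the disruptant, and the member on DF126476.1 almost only in the control.

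Broad clusters often had other clusters of their strand close by. A same-strand cluster lay within 200 bp upstream of 652 broad clusters (46.8%) and 2520 narrow ones (30.5%), and within 200 bp downstream of 704 (50.5%) and 2887 (34.9%). Either held for 979 broad clusters (70.3%) and 4133 narrow ones (50.0%), both for 27.1% of broad and 15.4% of narrow clusters. The neighbour was stronger than the cluster in 272 broad clusters (19.5%) and 1555 narrow ones (18.8%). With the level held to 20 to under 60 CPM, a neighbour on either side was found for 353 of 511 broad clusters (69.1%) and 944 of 2213 narrow ones (42.7%). A stronger neighbour was found at that level for 79 broad clusters (15.5%) and 198 narrow ones (8.95%).

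On the opposite strand the measures differed in order. A divergent cluster, on the other strand within 500 bp upstream, was found for 322 broad clusters (23.1%) and 2687 narrow ones (32.5%), and at 20 to under 60 CPM for 23.3% of broad and 36.4% of narrow clusters. A cluster overlapping on the other strand was found for 50 broad clusters (3.59%) and 138 narrow ones (1.67%). These shares describe a single genome's clusters and were not tested, and the part that the joining distance and the width threshold have in them was not tested either.

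Measured in each library alone, the median width of the 1393 members was 102, 104 and 102 bp in disruptant libraries 1, 2 and 3, and 102, 103 and 104 bp in control libraries 1, 2 and 3. In any library 1271 to 1305 members were at least 80 bp wide, 1065 (76.5%) were so in all 6 and 1 was so in none. The strongest position was the same in all 6 libraries in 538 broad clusters (38.6%), against 4237 narrow ones (51.3%). The mean start position of a broad cluster varied between replicates with a median SD of 3.87 bp, against 1.11 bp in narrow clusters.

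Deviations of the mean start position from the average of the 6 libraries were shared by some libraries. These deviations sum to 0 within a cluster, which by itself makes coefficients between libraries negative on average. Across 1392 members, which are no independent replicates, the correlation was 0.51 between control 1 and control 2. It was -0.74 and -0.72 between disruptant 2 and controls 1 and 2, and -0.71 between disruptant 1 and control 3. Not every pair followed the sets of libraries named above: within a set, the coefficient was -0.03 and 0.01 between disruptant 1 and controls 1 and 2, and -0.33 between disruptant 3 and control 3. Neither strain's 3 libraries deviated together: the coefficients were -0.23 to 0.21 within the disruptant and -0.28 to 0.51 within the control.

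For most broad clusters no difference in level between the strains passed the test. Of 1393 members tested, 107 were called at an adjusted p under 0.05 (7.68%; edgeR quasi-likelihood test with Benjamini-Hochberg adjustment over all 21803 clusters tested), against 8.11% of all clusters tested. Of these, 55 were higher in the disruptant (3.95%, against 4.10% of all clusters) and 52 were lower (3.73%, against 4.0%). Among narrow clusters 711 of 8264 were called (8.60%). The members' share was thus near the background in either direction. With library totals alone in place of normalization factors, 67 were higher and 42 lower.

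The median log2 fold change of disruptant over control was -0.03 over broad clusters and -0.01 over all clusters. Its median size was 0.29 in broad clusters, 0.29 in narrow clusters and 0.40 in all clusters. Within ranges of level the order of broad and narrow clusters varied. The median size was 0.33 in broad and 0.39 in narrow clusters at 5 to 10 CPM, and 0.34 and 0.27 at 10 to 30 CPM. At 30 to 100 CPM it was 0.27 and 0.23, and at 100 to 300 CPM 0.22 and 0.24. The replicate SD of log2(CPM + 0.5) had a median of 0.283 in broad and in narrow clusters. At 5 to 10 CPM this SD was 0.299 in broad and 0.312 in narrow clusters. It was 0.289 and 0.276 at 10 to 30 CPM, 0.277 and 0.259 at 30 to 100 CPM, and 0.272 and 0.248 at 100 to 300 CPM. The libraries of the strains did not overlap in 388 members (27.9%), against 29.3% of all clusters, and all 107 called members were among them. In 217 of these members (15.6%, against 16.3% of all clusters) the disruptant was higher, and in 171 (12.3%, against 13.0%) it was lower. Called members of the higher group had a median log2 fold change of 1.32, and those of the lower group -1.39. A change of at least 1 was reached by 81 called members (5.81%, against 7.41% of all clusters), 39 of the 55 higher and 42 of the 52 lower ones. The called members lay on 36 scaffolds, with 9 of 118 broad clusters on DF126447.1 and 9 of 77 on DF126449.1. These counts were not set against the share of all clusters called on each scaffold, so they are not read as a concentration there.

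The number of calls depended on single libraries. Without disruptant 3 the count was 43, without control 1 it was 53, without control 2 it was 61 and without disruptant 2 it was 67. Without disruptant 1 it was 85, and without control 3 it rose to 135. Called in all 6 of the fits that leave out a library, and with all 6 libraries, were 39 members, 24 higher and 15 lower. These counts were not set against those of all clusters, so they are not read as particular to broad clusters.

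The largest rise was on DF126449.1, plus strand, positions 404175 to 404370, a cluster 103 bp wide. It had 134, 162 and 129.6 CPM in disruptant libraries 1, 2 and 3, against 1.63, 3.00 and 2.16 CPM in control libraries 1, 2 and 3. Every disruptant library was far above every control library (142 ± 17.4 and 2.26 ± 0.69 CPM, SD, n = 3 each). The log2 fold change was 5.96 (SE 0.29; edgeR adjusted p = 3.23e-05). Its balance of upstream and downstream starts did not pass the test (log2 ratio -0.22, SE 0.29; edgeR adjusted p = 0.928).

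The next largest rise began 6868 bp before it on the same strand of the same scaffold, at positions 397307 to 397483. It had 135, 269 and 159 CPM in disruptant libraries 1, 2 and 3, against 1.79, 6.67 and 4.37 CPM in control libraries 1, 2 and 3. The disruptant libraries differed among themselves and lay clear of the control libraries (log2 fold change 5.45, SE 0.51; edgeR adjusted p = 0.000642).

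On DF126463.1, minus strand, positions 683115 to 683314 held 124, 242 and 116 CPM in disruptant libraries 1, 2 and 3, against 6.43, 7.79 and 8.27 CPM in control libraries 1, 2 and 3. The log2 fold change was 4.42 (SE 0.34; edgeR adjusted p = 0.000288). The cluster on DF126455.1, plus strand, positions 300221 to 300341, had 143, 137 and 112 CPM in the disruptant libraries and 4.85, 12.0 and 7.73 CPM in the control libraries (log2 fold change 3.99, SE 0.34; edgeR adjusted p = 0.000408). In both, the strains were well apart and the control libraries still held tags.

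The cluster on DF126470.1, plus strand, positions 147402 to 147662, was the strongest of the rising ones. It had 282, 294 and 266 CPM in disruptant libraries 1, 2 and 3, against 13.0, 32.2 and 14.8 CPM in control libraries 1, 2 and 3 (log2 fold change 3.81, SE 0.36; edgeR adjusted p = 0.000688). Weakest of the 6 was the cluster on DF126448.1, plus strand, positions 1639328 to 1639476, with 20.6, 12.6 and 24.7 CPM in the disruptant libraries and 1.69, 1.17 and 2.22 CPM in the control libraries. Its log2 fold change was 3.51 (SE 0.35; edgeR adjusted p = 0.000796).

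Among the falls, a cluster 108 bp wide on DF126486.1, plus strand, positions 106434 to 106637, was nearly silent in the disruptant. Its disruptant libraries held 0, 3 and 4 tags, at or next to the floor of 3 tags, against 1112, 3710 and 1049 tags in the control libraries. Summed over libraries and scaled by their sizes, the control level was 741 times the disruptant level, with a 95% counting interval of 359.5 to 1844. The fitted log2 fold change was -9.41 (SE 0.80; edgeR adjusted p = 0.000427), a value that depends on how the fit treats low counts. The control libraries were spread over 58.6, 189 and 62.8 CPM.

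On DF126450.1, plus strand, positions 717393 to 717499, the disruptant libraries held 17, 2 and 9 tags, against 597, 293 and 441 tags in the control libraries. The control level was 42.0 times the disruptant level (95% counting interval 28.9 to 63.5), and the log2 fold change was -5.42 (SE 0.53; edgeR adjusted p = 0.000737). On DF126470.1, minus strand, positions 326059 to 326171, the disruptant libraries held 5, 8 and 8 tags and the control libraries 344, 179 and 251. The ratio there was 32.6 (21.2 to 52.9) and the log2 fold change -4.99 (SE 0.41; edgeR adjusted p = 0.000381). These 3 clusters are the members with too few tags in the disruptant for a test of start position. Tags carry no molecular identifiers, so intervals and floors cover counting error only.

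The other 3 of the 6 largest falls kept a measurable level in the disruptant. On DF126475.1, minus strand, positions 63658 to 63802, the level was 6.0, 7.37 and 7.92 CPM in disruptant libraries 1, 2 and 3, against 49.1, 76.2 and 49.4 CPM in control libraries 1, 2 and 3 (log2 fold change -3.04, SE 0.25; edgeR adjusted p = 0.000388). On DF126476.1, plus strand, positions 228776 to 228965, it was 32.6, 14.4 and 23.6 CPM in the disruptant, against 219, 233 and 87.1 CPM in the control (-2.93, SE 0.43; edgeR adjusted p = 0.00457). Control 3 was the lowest control library there and still above every disruptant library. On DF126459.1, plus strand, positions 192990 to 193209, it was 16.6, 28.4 and 15.6 CPM in the disruptant, against 78.9, 110.3 and 138 CPM in the control (-2.43, SE 0.31; edgeR adjusted p = 0.00219).

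**Figure D4:**
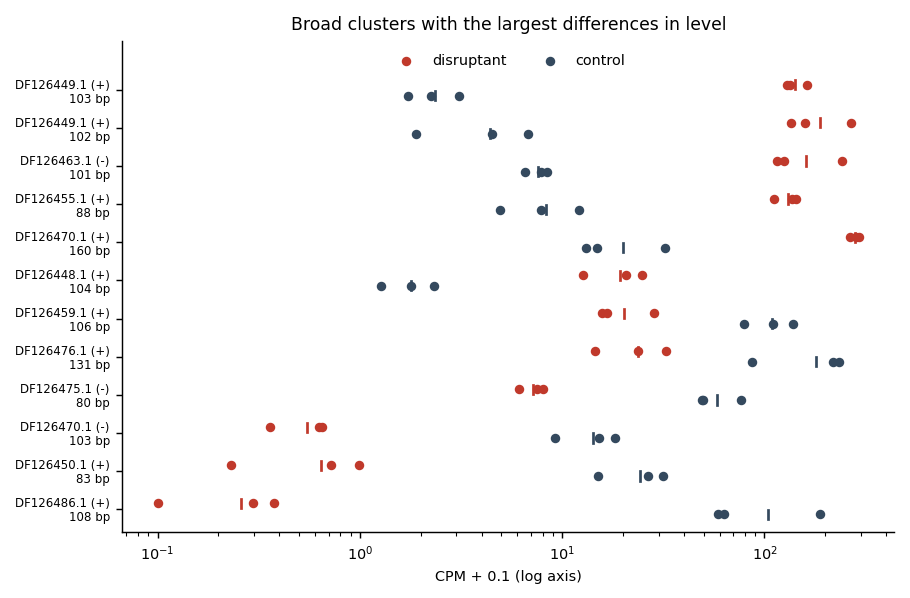
Level in CPM plus 0.1 (log axis) of 12 broad clusters, the 6 largest rises at the top and the 6 largest falls below; points are libraries, disruptant above control in each row, and vertical bars are group means. In the top 6 rows every disruptant library lies to the right of every control library, and in the lower 6 rows to the left.

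Among the clusters with the largest differences in level, widths in single libraries overlapped between the strains in some and not in others. The cluster on DF126459.1 was 127, 109 and 106 bp wide in disruptant libraries 1, 2 and 3 and 114, 110.0 and 89 bp wide in control libraries 1, 2 and 3, with its strongest position 8 bp upstream of the pooled median in all 6. In the cluster on DF126476.1 the width split the libraries in another way: it was 112, 169 and 143 bp in the disruptant libraries and 113, 113 and 165 bp in the control libraries, with disruptant 1 and controls 1 and 2 the narrowest. On DF126470.1 from 147402 the strains did not overlap: 147, 163 and 152 bp in the disruptant, 182 bp in each control library. Nor did they on DF126463.1 from 683115 (101, 89 and 101 against 115, 109 and 105 bp). On DF126449.1 from 404175 the disruptant was narrower (100, 103 and 108 against 115, 113 and 128 bp). From 397307 on that scaffold it was wider (102, 101 and 102 against 92, 96 and 92 bp). Both clusters on DF126449.1 held only 31 to 131 tags in a control library.

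Start position was tested apart from level, by asking in each library how many tags of a cluster lay upstream of its pooled median start. A positive log2 ratio means more upstream use in the disruptant. Start position could be tested in 1390 broad clusters, those holding 10 or more tags in each library, and 3 were called (edgeR quasi-likelihood test on the paired counts, adjusted p under 0.05), against 3 of 19437 clusters in all (0.0154%): they were the same 3. The shift was upstream in the disruptant in 2 (0.0103% of all clusters) and downstream in 1 (0.00514% of all clusters). Among 8217 narrow clusters 0 were called, with 663 at an unadjusted p under 0.05. The pooled tags of both strains set the width, so a cluster whose starts differ between the strains can be wider for it, and the count of broad clusters is not read against that of narrow ones. A limma test on the log2 ratio of the same counts, with 0.5 added to each, called 0 clusters, with 145 broad clusters at an unadjusted p under 0.05.

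The most significant was on DF126463.1, minus strand, positions 46232 to 46363, 84 bp wide. Upstream tags made up 66.5%, 71.4% and 70.1% of the cluster in disruptant libraries 1, 2 and 3, against 44.1%, 38.2% and 41.0% in control libraries 1, 2 and 3. The strongest start was 51 bp upstream of the pooled median in every disruptant library and 8 bp downstream of it in every control library. The log2 ratio was 1.68 (SE 0.19; edgeR adjusted p = 0.00603). Upstream starts gave 12.4 ± 2.51 CPM in the disruptant and 13.3 ± 2.83 CPM in the control, and downstream starts 5.58 ± 1.61 CPM in the disruptant and 18.8 ± 1.79 CPM in the control (SD, n = 3 each). The level of the whole cluster was not called (log2 fold change -0.83, SE 0.23; edgeR adjusted p = 0.0616).

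On DF126455.1, minus strand, positions 791687 to 791860, upstream tags made up 63.2%, 63.7% and 62.8% in the disruptant libraries, against 42.2%, 40.8% and 45.0% in the control libraries (log2 ratio 1.21, SE 0.16; edgeR adjusted p = 0.0179). Upstream starts gave 19.5 ± 5.41 CPM in the disruptant and 19.6 ± 4.39 CPM in the control, downstream starts 11.3 ± 3.00 CPM in the disruptant and 26.2 ± 3.48 CPM in the control (SD, n = 3 each). In both clusters it was thus the downstream level that was apart between the strains, while the upstream levels overlapped. The log2 fold change in level of this cluster was -0.57 (SE 0.24; edgeR adjusted p = 0.193) and was not called.

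The third was the rising cluster on DF126470.1, plus strand, from 147402, and its shift went the other way. Upstream tags made up 32.0%, 38.8% and 34.4% in disruptant libraries 1, 2 and 3, against 72.8%, 58.1% and 73.3% in control libraries 1, 2 and 3 (log2 ratio -1.94, SE 0.23; edgeR adjusted p = 0.00842). Both parts were higher in the disruptant. Upstream starts gave 98.6 ± 13.5 CPM in the disruptant and 13.0 ± 4.98 CPM in the control, downstream starts 182 ± 8.94 CPM in the disruptant and 6.99 ± 5.63 CPM in the control (SD, n = 3 each). The median start of the control libraries was 133, 2 and 133 bp upstream of the pooled one, and that of every disruptant library was at it. The disruptant libraries held 5405, 4467 and 3857 tags of this cluster and the control libraries 246, 632 and 247. The pooled median was thus set mostly by the disruptant, so the place of the disruptant libraries at it is no observation of its own.

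None of the 3 calls was kept in every alternative fit. The cluster on DF126463.1 from 46232 kept its direction and was called in 9 of 14 alternatives, the one on DF126470.1 in 8 and the one on DF126455.1 in 4. Their highest adjusted p was 0.725, in limma with the replicate number as a block, and their lowest were 1.81e-05, 1.29e-06 and 0.00017. When a library was left out their log2 ratios kept their direction, at between 1.60 and 1.79 on DF126463.1, 1.15 and 1.28 on DF126455.1, and -2.33 and -1.75 on DF126470.1. Without disruptant 3 the edgeR count was 0, with 226 broad clusters at an unadjusted p under 0.05. Without control 1 it was 1, against 1 of 19526 clusters in all. Without control 3 it was 27, against 63 of 19659 clusters in all. With the 2 sets of libraries described above as a covariate, 68 broad clusters were called, against 127 of 19437 clusters in all. Those sets were drawn from start positions of these same data, so more calls and a lower p there are no support. This fit is among the 14 alternatives and gave the lowest adjusted p on DF126470.1. The values within a set could not be had, since each set holds a single library of 1 strain.

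At an unadjusted p under 0.05, 277 of the 1390 broad clusters (19.9%) stood out by start position, against 7.36% of all clusters tested, 177 toward upstream and 100 toward downstream in the disruptant. The limit given above holds here too: the pooled width that chose the members can be larger where libraries differ in their starts, so the excess over all clusters is not read as a result about broad clusters. It also depended on the fit. With the sets of libraries as a covariate the share was 28.9% of broad clusters and 10.3% of all clusters, in limma 10.4% and 7.47%, and in limma with the replicate block 6.04% and 6.72%. Among members called for level, 19 of 55 higher ones and 17 of 49 lower ones were among the 277, and among members not called for level 241 of 1286. These counts were not set against those of all clusters, so they are not read as a link between level and start position in broad clusters.

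The last comparison asked whether starts were more or less spread in the disruptant, from the share of tags outside the interval between the pooled 25% and 75% positions, here the outer share. That interval follows the strain with more tags in a cluster, so a shift of starts can also change this share. Of 1390 broad clusters, 7 were called, all with a smaller outer share in the disruptant (edgeR quasi-likelihood test, adjusted p under 0.05), against 10 of 19437 clusters in all (0.0514%) and 8 in that direction (0.0412%). A larger outer share in the disruptant was called in 0 broad clusters, 2 clusters in all (0.0103%), with 57 broad clusters at an unadjusted p under 0.05 in that direction. Among narrow clusters 3 were called. A cluster widely spread in a single strain can reach 80 bp in the pooled tags, so the 7 calls are not read against those of other clusters. In limma 0 were called, with 56 broad clusters at an unadjusted p under 0.05.

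The smallest p was found on DF126457.1, minus strand, positions 364180 to 364380. The outer share was 19.9%, 22.6% and 24.1% in disruptant libraries 1, 2 and 3, against 42.2%, 54.8% and 38.1% in control libraries 1, 2 and 3 (log2 ratio -1.52, SE 0.20; edgeR adjusted p = 0.0115). The strongest position was the same in all 6 libraries. The width in single libraries was 36, 49 and 67 bp in the disruptant and 105, 123 and 121 bp in the control, so the cluster reached 80 bp in the control libraries only. Its level was 163 ± 42.3 CPM in the disruptant and 164 ± 12.8 CPM in the control (SD, n = 3 each), and was not called (log2 fold change -0.01, SE 0.22; edgeR adjusted p = 0.983).

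On DF126448.1, minus strand, positions 822657 to 822775, the outer share was 39.9%, 40.1% and 39.8% in the disruptant libraries, against 56.8%, 58.4% and 57.3% in the control libraries (log2 ratio -1.02, SE 0.14; edgeR adjusted p = 0.0120). The replicates of each strain lay close together, and the strains far apart. The width was 44, 43 and 63 bp in the disruptant libraries and 112, 111 and 112 bp in the control libraries. This cluster too reached 80 bp in the control libraries only. The level was not called (log2 fold change 0.22, SE 0.18; edgeR adjusted p = 0.497).

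On DF126449.1, minus strand, positions 1422666 to 1422955, the outer share was 23.9%, 19.3% and 22.8% in the disruptant libraries, against 35.7%, 33.2% and 34.8% in the control libraries (log2 ratio -0.91, SE 0.13; edgeR adjusted p = 0.0120). Its width was 164, 73 and 97 bp in the disruptant and 227, 220.0 and 225 bp in the control, and its level was not called (log2 fold change 0.24, SE 0.30; edgeR adjusted p = 0.663). Also called was the rising cluster on DF126470.1 from 147402, which was called for start position too. Its outer shares were 33.4%, 42.9% and 34.3% in the disruptant and 73.6%, 55.2% and 75.3% in the control (log2 ratio -1.79, SE 0.26, edgeR adjusted p = 0.0120). The control values lay near its control shares of upstream tags, so both calls are not read as separate results. The rising cluster on DF126463.1 from 683115 was called as well, with outer shares of 45.3%, 40.1% and 47.4% in the disruptant and 83.6%, 63.4% and 77.5% in the control (log2 ratio -1.88, SE 0.26; edgeR adjusted p = 0.0120). Tags upstream of the pooled median made up 52.6%, 46.0% and 50.5% in its disruptant libraries, against 81.1%, 64.1% and 78.3% in its control libraries. Its disruptant libraries held 2384, 3669 and 1682 tags and its control libraries 122, 153 and 138, so the pooled interval mostly followed the disruptant. Its median start stood at -2, 2 and 0 bp in the disruptant and at -64, -22 and -60 bp in the control. Neither this call nor the one on DF126470.1 is therefore read as a difference in spread alone.

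The number of these calls changed when a library was left out, while the log2 ratios of the 4 clusters with the smallest p kept their direction: they were -1.72 to -1.24 on DF126457.1, -1.045 to -0.998 on DF126448.1, -0.99 to -0.80 on DF126449.1 and -2.37 to -1.58 on DF126463.1. Without disruptant 3 or without control 1 the edgeR count was 0, with 111 and 101 broad clusters at an unadjusted p under 0.05. Without control 2 it was 3, without disruptant 2 it was 4 and without control 3 it was 14. Over all clusters the counts in these fits were 4 of 19565, 5 of 20168 and 48 of 19659. At an unadjusted p under 0.05 there were 138 broad clusters (9.93%), against 5.45% of all clusters tested, 81 of them with a smaller outer share in the disruptant. In limma the order was the other way, with 4.03% of broad clusters and 6.4% of all clusters, and with the replicate block 2.23% and 6.13%. Since the pooled width chose the members, these shares are not read as a result about broad clusters.

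**Figure D5:**
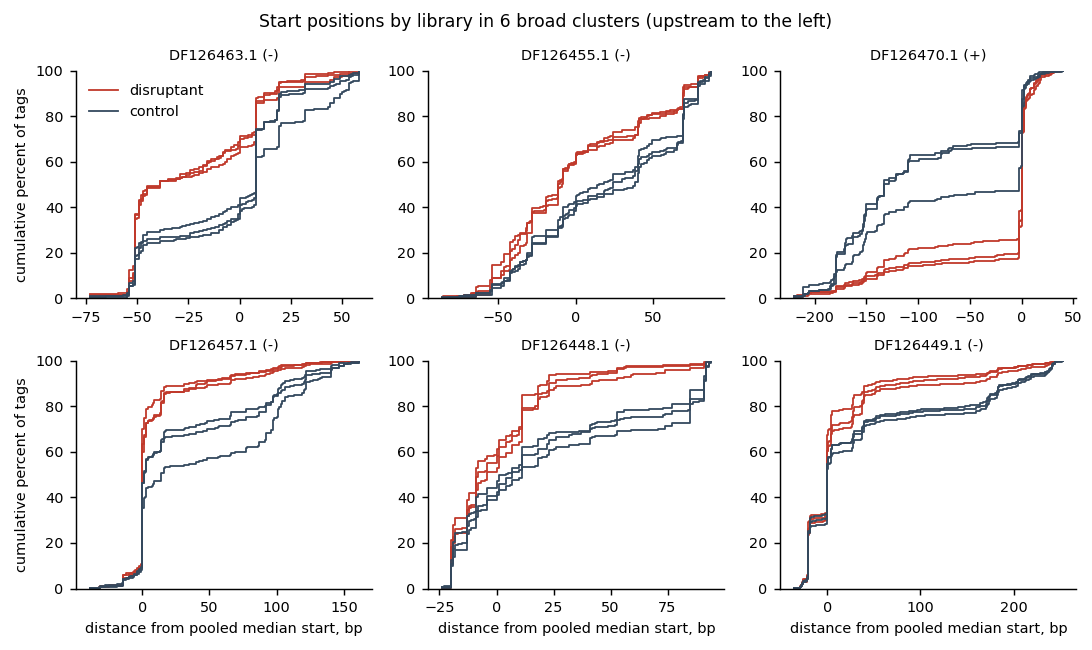
Cumulative percent of tags against distance in bp from the pooled median start, a line per library, for the 3 broad clusters called for start position (top row: DF126463.1 from 46232, DF126455.1 from 791687, DF126470.1 from 147402) and 3 called for outer share (bottom row: DF126457.1, DF126448.1, DF126449.1). At the pooled median the disruptant lines stand above the control lines in the first pair of top panels (62.8% to 63.7% against 40.8% to 45.0% on DF126455.1) and below them on DF126470.1, and in the bottom row they climb more steeply near the median.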

How the data were processed

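The authors deposited raw CAGE tag counts per start position and strand for 6 libraries, with no scaling. Per the submitters' processing notes, FastQC, BWA and bedtools were used, with no versions or roles. The genome build, trimming and the treatment of tags mapping to several places are not given in the sources used here, and tags of repeated sequence may therefore be split or misplaced. Positions count from 0 in the table and from 1 here. The end that marks a minus-strand tag may follow another convention. Samples were grouped by title.

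Clusters were built from the pooled counts as described in the results, every tag between the first and last position counting toward a cluster. Pooled CPM use library totals, CPM per library the effective sizes of the fit. Levels of all clusters of at least 1 CPM were tested with edgeR 4.0.16 in R 4.3.3 (TMM factors, filterByExpr, quasi-likelihood F test of group, Benjamini-Hochberg adjustment over 21803 clusters). Standard errors are the estimate divided by the root of F. Start position and outer share were tested with edgeR where each library held 10 or more tags, on 2 counts per library, a term per library and the interaction of part with group. Alternatives used DESeq2 1.42.0 and limma 3.58.1, other thresholds and cluster definitions, and each library left out. The statistical scripts were tested on simulated data.

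Library totals of 14.8 to 19.3 M tags set the floor of 3 tags at 0.153 to 0.207 CPM. Chi-square per degree of freedom between libraries of a strain was 32.6 to 94.7, so none was a copy of another.

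Named clusters were the 3 widest, the 3 most even, the 6 largest rises and 6 largest falls in level, the 6 and 4 smallest p for start position and outer share among those called, and the 3 on each side of each threshold. The members and these rules were chosen with earlier results of these data known. The gene table at hand belongs to another assembly and was not used.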

Additional observations from a re-analysis of the deposited data

How the results depend on the processing

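Instead of 1393 members with a median width of 103 bp, positions of at least 0.05 CPM gave 2196 (110.0 bp) and of at least 0.2 CPM 744 (98 bp). Joining at 10 bp gave 309 (94 bp) and at 40 bp 2467 (116 bp). Widths between 5% and 95% of tags gave 2226 (105 bp) and between 25% and 75% 372 (97 bp). A width threshold of 60 bp gave 2589 (82 bp) and of 100 bp 785 (125 bp). Counting only tags at positions of at least 0.1 CPM, an alternative added after seeing the data, gave 1255 (104 bp). Libraries scaled to the same total before pooling gave 1395 (103 bp). With 1 library left out each time the count was 1400 to 1488, and 1285 to 1347 of the 1393 members overlapped a broad cluster found anew on their strand by at least 1 bp. The level limits and the scaffolds left out had no alternative.

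For level, 107 members were called. An adjusted p under 0.01 left 42, DESeq2 called 169, and the sets of libraries as a covariate 171. In the same clusters and fit, a width threshold of 60 bp gave 199 calls of 2589 members and one of 100 bp 67 of 785. Clusters joined anew gave 21 calls of 309 members at a joining distance of 10 bp and 225 of 2467 at 40 bp. The number of members thus changed along with the number of calls. Leaving out each library gave 43 to 135. The 12 clusters named for level kept their call and direction in all 201 alternative fits that could be made, with a highest adjusted p of 0.0405 (DF126476.1 from 228776 without disruptant 3).

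For start position, 3 were called. The sets of libraries as a covariate gave 68 (127 over all clusters) and a split at the midpoint of the width 17 (27 over all clusters). In limma the count was 0 with 0.5 or 1 added, with the sets and with the replicate block. Leaving out each library gave 0 to 27, and 0 to 63 over all clusters. For outer share, 7 were called. An adjusted p under 0.01 left 0, the sets gave 25 (47 over all clusters) and limma 0 in the same 4 fits. Leaving out each library gave 0 to 14, and 0 to 48 over all clusters. Of the alternative fits of clusters named for these tests, 21 kept and 21 lost the call for start position and 25 and 27 for outer share, with no change of direction. The limma fits with the sets or the block were added after seeing the data. The sets were drawn from start positions of these data, so calls in the fits that use them are no support. The cause of these differences was not tested.

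The replicate numbers did not pair the libraries: libraries of number 1, 2 and 3 deviated from their group means with correlations of 0.47, -0.42 and -0.09 over 21803 clusters. With the replicate block, 60 members were called for level, 2 for start position and 8 for outer share.

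Depth limits the weakest members. Near 5 CPM a library holds few tags per position of a broad cluster, so the strongest position and the width of a single library are uncertain there. With 3 libraries of each strain, small shifts of a few bp, the size of the replicate SD, could not be told from the spread. Without a genome of the scaffolds' build, no sequence or gene annotation was used.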
